A study of Arabidopsis thaliana with 4 samples.

Results

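The HSP90 family of Arabidopsis thaliana was followed in 2 mutants by RNA sequencing of whole seedlings. Its 7 members were taken by gene identifier, out of 33557 genes in each of the 2 deposited tables, and all 7 were tested by the authors in both. They are HSP90.1 (AT5G52640), HSP90.2 (AT5G56030), HSP90.3 (AT5G56010) and HSP90.4 (AT5G56000) of the cytosol, HSP90.5 (AT2G04030) of the plastid, HSP90.6 (AT3G07770) of the mitochondrion and HSP90.7 (AT4G24190) of the endoplasmic reticulum (ER). The mutants were hdp3-2, with 2 libraries, and asil1-2, with 2 libraries, and the authors set each against the wild type Col-0. HDP3 is a Harbinger transposase taken over by the host, ASIL1 is a trihelix DNA-binding factor, and the series asks whether their effects on transcription overlap. Per the labels, mutant seedlings were 14 days old and had been stratified for 3 days at 4 °C. They grew on agar medium with 2% sucrose at 22 °C, lit for 16 h and dark for 8 h a day. The strain named in the growth protocol is Col-0, and the nature of the mutant alleles is not given in the sources used here.

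HSP90 proteins are chaperones that use ATP to hold partly folded client proteins, among them kinases, receptors and transcription factors, until they can be activated. Helper proteins called co-chaperones deliver clients, set the pace of the ATP cycle or add enzyme activities. In plants the cytosolic forms take part in hormone perception, disease resistance and the heat response, where HSP90 binds heat shock factors (HSFs) and keeps them inactive without stress. HSP90.1 is the heat-inducible cytosolic form and HSP90.2 to HSP90.4 are expressed constitutively.

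Every level below is the authors' FPKM (fragments scaled to transcript length and sequencing depth), 1 value per genotype and table. Values per library were not analysed here, so the depth and the spread between single libraries are unknown, and whether levels of different members differ beyond that spread cannot be said. A Cuffdiff q under 0.05 made a call, and "rose" and "fell" are used of called genes. The smallest p of the Cuffdiff test was 5e-05. It gave the lowest q, which was 0.00374 for hdp3-2 and 0.00165 for asil1-2 in the authors' deposited tables. Genes at this lowest q cannot be ranked by it. Log2 fold changes are of the mutant over Col-0, and their standard error (SE) was taken from the statistic in the authors' table. Whether both libraries of a mutant stem from separate cultures of plants is not stated in the labels, so the deposited p-values reflect only the spread between the libraries compared, Col-0 included, and that spread may be technical. Col-0 libraries are not among the samples described, so a difference in growth, harvest or library preparation and the effect of a mutation cannot be told apart.

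The labels were checked first. The authors' FPKM of ASIL1 (AT1G54060) was 4.16 in asil1-2 and 22.9 in Col-0, and ASIL1 was called lower in the authors' deposited table (q = 0.00165). HDP3 is paired with no locus in the tables or the reference names used here, so hdp3-2 has no such check. Of the seedling tissues, leaf markers summed to 42319 FPKM in hdp3-2 against 48248 in Col-0, and to 46997 in asil1-2 against 49158 in Col-0. Root markers summed to 873 FPKM in hdp3-2 and 1037 in Col-0, and to 996 in asil1-2 and 1057 in Col-0. Flower and seed storage markers each summed to at most 2.71 FPKM in any genotype, and the seed albumin gene SESA1 was listed at 0 in Col-0. The root sum is mostly PYK10, at 820 FPKM in hdp3-2 and 1002 FPKM in Col-0. The 1 marker called was the root peroxidase gene PRX72 (AT5G66390), which was higher in hdp3-2, at 46.4 FPKM against 28.6 FPKM in Col-0, and the root hair gene EXPA7 had 5.04 FPKM in hdp3-2 and 3.85 FPKM in Col-0 without a call.

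The members differ in position and in how far their sequences can be told apart. HSP90.2, HSP90.3 and HSP90.4 are neighbours on chromosome 5 (TAIR10, counted from 1). HSP90.4 spans 22677451 to 22680152 on the minus strand, HSP90.3 spans 22681305 to 22684129 on the plus strand and HSP90.2 spans 22686802 to 22689650 on the plus strand. HSP90.1 lies elsewhere on chromosome 5, from 21352399 to 21355361 on the plus strand. HSP90.5 is on chromosome 2 (1281841 to 1286104, plus strand), HSP90.6 on chromosome 3 (2479548 to 2484194, plus strand) and HSP90.7 on chromosome 4 (12551717 to 12555909, minus strand). No member overlaps another locus of the tables. The cytosolic genes have 3 or 4 coding exons in the RefSeq annotation, whereas HSP90.5, HSP90.6 and HSP90.7 have 19, 20 and 15.

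Over aligned coding bases without gaps, HSP90.2 and HSP90.3 are 95.7% identical, HSP90.3 and HSP90.4 95.4%, and HSP90.2 and HSP90.4 94.3%. HSP90.1 is 78.9% to 79.5% identical to these neighbours. Any other pair of members is at most 68.1% identical. Of all windows of 100 bases in the RefSeq transcripts, 8.98% of those of HSP90.2, 10.8% of HSP90.3 and 5.36% of HSP90.4 occur letter for letter in another member, and 0% of those of the other members do. Reads from these shared stretches could have been counted for a neighbour, so levels of HSP90.2, HSP90.3 and HSP90.4 are less certain, while those of HSP90.1 are free of this within the family.

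The sequences before the starts of HSP90.1, HSP90.2 and HSP90.3 are shown because these members rose in hdp3-2, as given below. The bases come from the RefSeq genome TAIR10.1, at the transcript starts of the deposited TAIR10 loci, and run 5′ to 3′ on the plus strand. They lie at chr5:21352142-21352398, chr5:22686502-22686801 and chr5:22681005-22681304. The first of them begins where the neighbouring gene AT5G52630 ends. In HSP90.1 capitals mark matches to the heat shock element (HSE), the binding motif of HSFs. In HSP90.2 and HSP90.3 capitals mark runs of at least 10 bases shared with each other or with the same window of HSP90.4.
HSP90.1: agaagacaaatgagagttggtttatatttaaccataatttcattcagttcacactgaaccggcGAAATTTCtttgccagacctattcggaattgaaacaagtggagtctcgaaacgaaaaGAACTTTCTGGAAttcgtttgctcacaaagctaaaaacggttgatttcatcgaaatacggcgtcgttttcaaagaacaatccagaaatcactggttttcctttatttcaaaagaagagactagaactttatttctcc
HSP90.2: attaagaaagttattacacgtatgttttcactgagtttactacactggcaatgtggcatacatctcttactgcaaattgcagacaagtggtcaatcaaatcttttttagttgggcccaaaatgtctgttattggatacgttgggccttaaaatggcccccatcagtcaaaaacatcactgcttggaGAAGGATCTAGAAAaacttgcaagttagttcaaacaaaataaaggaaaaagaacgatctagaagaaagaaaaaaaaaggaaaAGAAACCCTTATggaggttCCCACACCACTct
HSP90.3: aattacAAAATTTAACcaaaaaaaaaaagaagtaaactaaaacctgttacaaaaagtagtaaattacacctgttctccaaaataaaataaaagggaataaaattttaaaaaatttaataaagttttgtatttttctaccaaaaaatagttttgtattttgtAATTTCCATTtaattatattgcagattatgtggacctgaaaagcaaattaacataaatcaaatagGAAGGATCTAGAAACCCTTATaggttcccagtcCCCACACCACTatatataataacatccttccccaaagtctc

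An HSE is built of GAA units in alternating orientation. With 3 units it was searched as GAANNTTCNNGAA or TTCNNGAANNTTC and with 2 units as GAANNTTC or TTCNNGAA. Each pair covers both strands, every match with 3 units holds matches with 2, and the window was the 300 bases before the start. A match with 3 units was found in HSP90.1 and in no other member, as GAACTTTCTGGAA, beginning 137 bases before the start. It occurs in 0.506% of 32792 windows of nuclear genes. HSP90.1 also holds GAAATTTC, beginning 194 bases before the start, outside that match. HSP90.5 and HSP90.6 hold 1 match with 2 units each, and 19.4% of all windows hold at least 1. HSP90.2, HSP90.3 and HSP90.4 hold no exact match to these letters. The search allowed no mismatch, so these members are not shown to lack sites that resemble an HSE. The longest run shared by HSP90.2 and HSP90.3, given in the next paragraph, resembles the letters with 3 units without matching them. How often such near matches occur was not counted.

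HSP90.2 and HSP90.3 share stretches of their upstream sequence. The run GAAGGATCTAGAAA begins 114 bases before the start in HSP90.2 and 74 bases before it in HSP90.3, and it occurs in 2 of the 32792 windows, both strands counted. AGAAACCCTTAT is shared likewise and occurs in 4 windows, and CCCACACCACT in 6. No run of at least 10 bases with 3 or more kinds of base was shared by HSP90.2 and HSP90.4. HSP90.3 and HSP90.4 share AAAATTTAAC and AATTTCCATT, which occur in 159 and 147 windows. The ER stress element, searched as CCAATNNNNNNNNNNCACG on both strands, was found in HSP90.7, where it begins 171 bases before the start, and in 0.866% of all windows. The GT element GTGATT, a motif described for ASIL1, was found on the minus strand of HSP90.1, as AATCAC beginning 52 bases before the start, and in 18.6% of all windows.

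In hdp3-2 seedlings 3 cytosolic HSP90 genes rose, HSP90.1 by far the most, while HSP90.4 and the plastid, mitochondrial and ER forms were not called. Of the 7 members 3 rose and 0 fell by the authors' Cuffdiff test, where 1.3% of all tested genes rose, 1.78% fell and 3.08% were called either way. At an unadjusted p under 0.05, 3 members were higher and 0 lower, against 878 higher and 1690 lower of all 20177 tested genes. Reading the authors' statistic as a normal z, with Benjamini-Hochberg adjustment, called 2. This reading is stricter than the deposited p for most genes, and it called 147 of all tested genes in hdp3-2, against 622 by Cuffdiff. HSP90.1 stood at 99.5 FPKM in hdp3-2 and 5.61 FPKM in Col-0, a 17.8-fold higher level. Its log2 fold change was 4.15 ± 0.31 (SE), with a 95% interval of 3.54 to 4.76 and a q of 0.00374 in the authors' deposited table. This was the tenth highest log2 fold change of the 20132 tested genes with FPKM above 0 in both genotypes. The level of HSP90.1 exceeded that of 92.9% of tested genes in hdp3-2, and of 31.4% in Col-0.

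Of the constitutive neighbours, HSP90.2 and HSP90.3 were called and HSP90.4 was not, and their changes were not tested against each other. HSP90.2 had 176 FPKM in hdp3-2 and 81.3 FPKM in Col-0, and rose by 1.11 ± 0.29 (SE) in log2 (q = 0.00374 in the authors' deposited table). HSP90.3 had 138 FPKM in hdp3-2 and 86.3 FPKM in Col-0, and rose by 0.67 ± 0.29 in log2. The q of HSP90.3 was 0.0420 in the authors' deposited table, near the limit, and the call was lost at a q under 0.01, with a 2-fold minimum and in the normal reading of the authors' statistic (adjusted p = 0.634). HSP90.4 was listed at 10.4 FPKM in hdp3-2 and 10.6 FPKM in Col-0, a log2 fold change of -0.02 ± 0.30 with a 95% interval of -0.60 to 0.57. The gene that lies between HSP90.3 and HSP90.2, AT5G56020, had a log2 fold change of -0.23 ± 0.38 and was not called.

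The organelle and ER forms had values on both sides of 0 in hdp3-2, and none passed. HSP90.5, which is needed for chloroplast development and protein import, had 105 FPKM in hdp3-2 and 129 FPKM in Col-0 (log2 fold change -0.30 ± 0.29, 95% interval -0.87 to 0.27). HSP90.6 had 26.5 FPKM in hdp3-2 and 24.7 FPKM in Col-0 (0.10 ± 0.28, interval -0.45 to 0.65). HSP90.7, also called SHEPHERD, which is needed for the CLAVATA signals that limit the shoot meristem, had 97.0 FPKM in hdp3-2 and 119 FPKM in Col-0 (-0.29 ± 0.29, interval -0.85 to 0.27). With intervals this wide, the organelle and ER forms are not shown to have stayed the same.

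**Figure D1:**
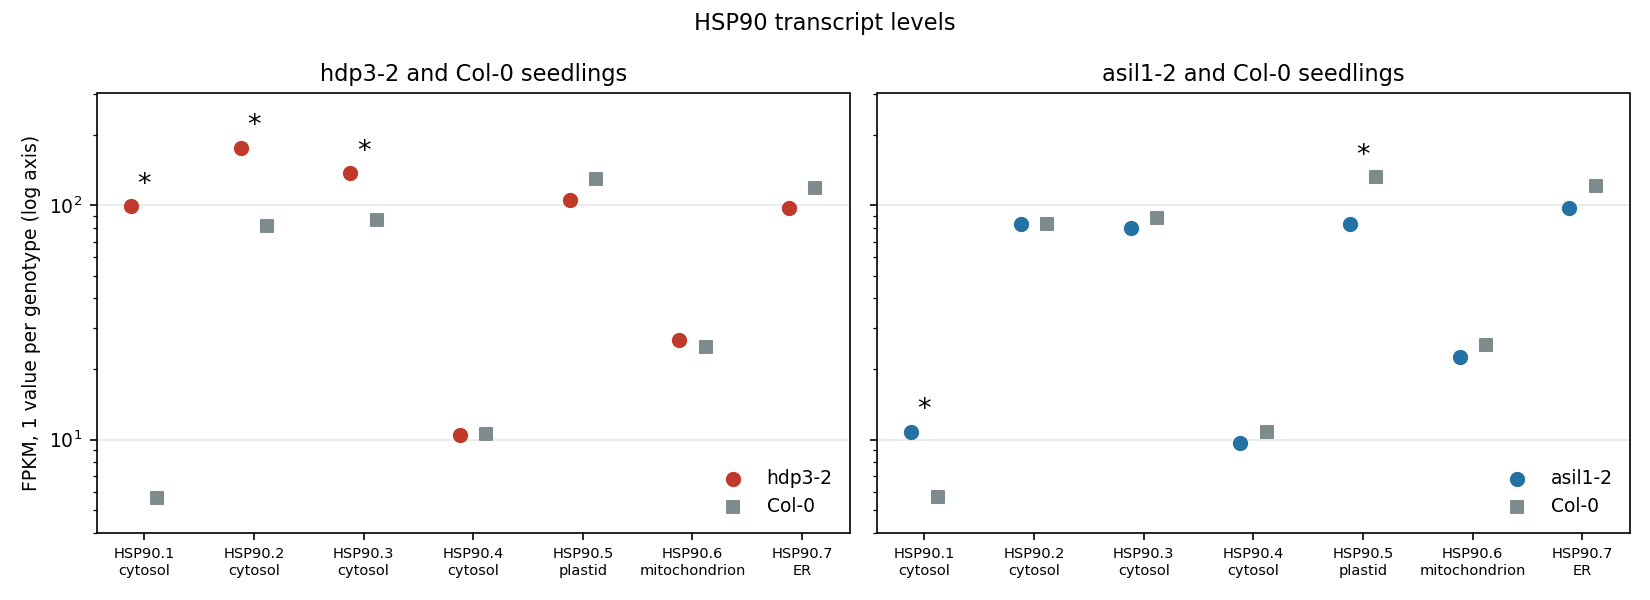
FPKM of the 7 HSP90 members on a log axis, with circles for the mutant and squares for Col-0 (left: table of hdp3-2, right: table of asil1-2); each point is the authors' 1 value per genotype and asterisks mark a q under 0.05. HSP90.1 stands at 99.5 FPKM in hdp3-2 and 10.8 FPKM in asil1-2, above 5.61 and 5.71 FPKM in the Col-0 columns.

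In asil1-2 seedlings HSP90.1 rose to a smaller extent and HSP90.5 fell. Of the 7 members 1 rose and 1 fell, where 2.71% of tested genes rose, 5.72% fell and 8.42% were called either way. At an unadjusted p under 0.05, 1 member was higher and 1 lower, against 1326 higher and 2719 lower of all 20205 tested genes. HSP90.1 had 10.8 FPKM in asil1-2 and 5.71 FPKM in Col-0, and rose 1.89-fold. Its log2 fold change was 0.92 ± 0.27 (SE), with a 95% interval of 0.39 to 1.45 and a q of 0.00165 in the authors' deposited table. HSP90.1 stayed below 2-fold, so a 2-fold minimum ended this call. The plastid form HSP90.5 had 82.8 FPKM in asil1-2 and 131 FPKM in Col-0, and fell by 0.67 on the log2 scale (SE 0.24, 95% interval -1.15 to -0.19, q = 0.00165 in the authors' deposited table). The fall of HSP90.5 was also below 2-fold, and it did not pass in the normal reading of the authors' statistic (adjusted p = 0.173). That reading called 438 of all tested genes in asil1-2, against 1702 by Cuffdiff.

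The remaining members were not called in asil1-2. HSP90.2 was listed at 82.8 FPKM in asil1-2 and 82.8 FPKM in Col-0, with a 95% interval of the log2 fold change from -0.47 to 0.47. HSP90.3 had 80.1 FPKM in asil1-2 and 88.0 FPKM in Col-0 (log2 fold change -0.13 ± 0.24). HSP90.4 and HSP90.6 both had log2 fold changes of -0.16, at 9.66 and 22.6 FPKM in asil1-2 against 10.8 and 25.2 FPKM in Col-0. HSP90.7 had 97.0 FPKM in asil1-2 and 121 FPKM in Col-0, a log2 fold change of -0.32 ± 0.24 that did not pass (q = 0.278 in the authors' deposited table). Of the 7 members, 6 had a log2 fold change below 0 in asil1-2, as did most tested genes, whose median was -0.08.

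**Figure D2:**
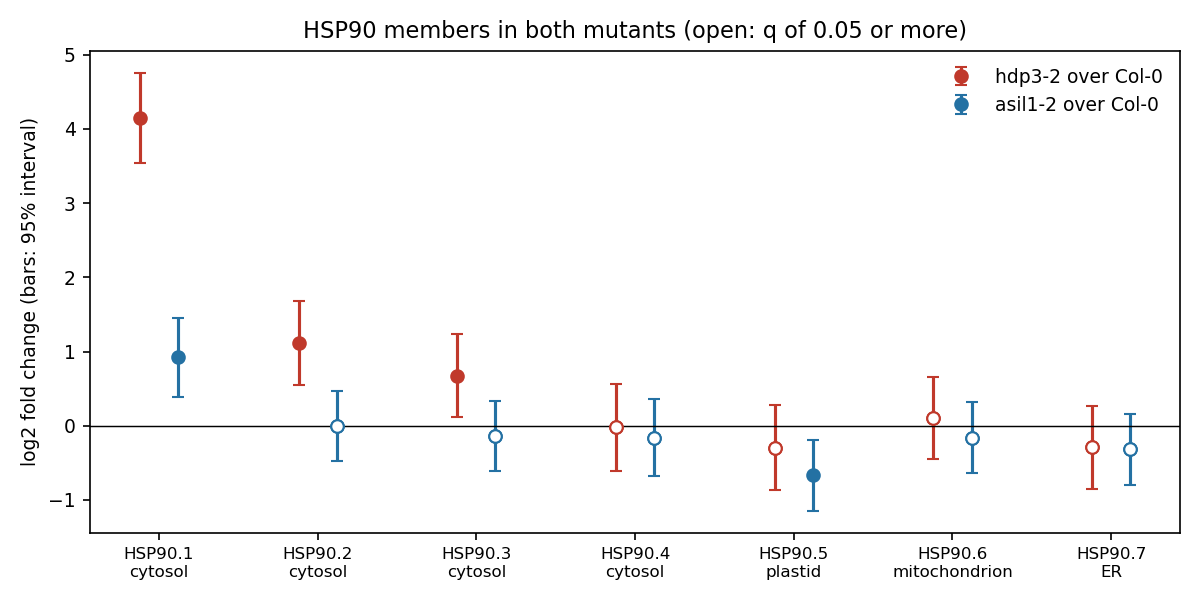
Log2 fold change over Col-0 (y axis) of each HSP90 member in hdp3-2 and asil1-2, with 95% intervals from the SE; filled points have a q under 0.05. HSP90.1 lies at 4.15 in hdp3-2 and 0.92 in asil1-2, HSP90.2 and HSP90.3 are filled in hdp3-2 alone, and HSP90.5 is filled in asil1-2 alone at -0.67.

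A z test for each gene asked whether the mutants differ, on the difference of the log2 fold changes, hdp3-2 minus asil1-2, adjusted by Benjamini-Hochberg over 19977 genes, of which 0.13% passed. The test is a normal approximation that rests on the SEs from the authors' statistic, not on values per library. Both comparisons share Col-0, so the summed variance counts Col-0 2 times, which widens the SE of the difference. The factor of 0.5 used below is a chosen alternative and not an estimate of that excess. HSP90.1 was the 1 member that passed, with a difference of 3.23 ± 0.41 (SE) and a 95% interval of 2.42 to 4.04 (z test on SEs from the authors' statistic, adjusted p = 5.02e-11). The rise of HSP90.1 was thus 9.38-fold greater in hdp3-2 than in asil1-2. HSP90.2 had a difference of 1.11 ± 0.37 (interval 0.38 to 1.85) and did not pass on the SEs from the authors' statistic (adjusted p = 0.864), but with the summed variance multiplied by 0.5 it did (adjusted p = 0.00765). HSP90.3 had a difference of 0.81 ± 0.37 (interval 0.08 to 1.54) and passed under neither variance. HSP90.5, called in asil1-2 alone, had a difference of 0.37 ± 0.38 with an interval from -0.38 to 1.12, so its change is not shown to differ between the mutants. The differences of HSP90.4, HSP90.6 and HSP90.7 were 0.14, 0.26 and 0.03, each with an interval that spans 0.

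Because FPKM is scaled to transcript length, the members can be set side by side within a table. In hdp3-2 the order was HSP90.2 (176 FPKM), HSP90.3 (138), HSP90.5 (105), HSP90.1 (99.5), HSP90.7 (97.0), HSP90.6 (26.5) and HSP90.4 (10.4). In Col-0 the levels ran from HSP90.5 (129 FPKM in the table of hdp3-2) through HSP90.7 (119), HSP90.3 (86.3), HSP90.2 (81.3), HSP90.6 (24.7) and HSP90.4 (10.6) to HSP90.1 (5.61). HSP90.1 was thus listed near HSP90.5 and HSP90.7 in hdp3-2 and as the lowest member in Col-0, without a test between members. In asil1-2 HSP90.7 led at 97.0 FPKM, followed by HSP90.2 and HSP90.5 at 82.8 FPKM each, and HSP90.1 and HSP90.4 came last at 10.8 and 9.66 FPKM.

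The cytosolic members together came to 424 FPKM in hdp3-2 and 184 FPKM in Col-0, a 2.31-fold higher sum. HSP90.1 held 23.5% of this sum in hdp3-2, against 3.05% in Col-0. HSP90.2 held 41.6% in hdp3-2 and 44.2% in Col-0, HSP90.3 held 32.5% and 47.0%, and HSP90.4 held 2.47% and 5.75%, each given for hdp3-2 first. Of the added 240 FPKM, HSP90.1 gave 39.1%, HSP90.2 gave 39.5% and HSP90.3 gave 21.4%. HSP90.2, with a 2.17-fold higher level, thus added about as much FPKM (94.8) as HSP90.1 did (93.9). In asil1-2 the cytosolic sum was 183 FPKM against 187 FPKM in Col-0, and HSP90.1 held 5.90% of it against 3.05%. Across all 7 members the sum was 652 FPKM in hdp3-2 and 456 FPKM in Col-0, and 386 FPKM in asil1-2 and 465 FPKM in Col-0. The cytosolic share of that sum was 65.0% in hdp3-2 and 40.3% in Col-0, and 47.5% in asil1-2 and 40.3% in Col-0. These sums are descriptions without a test.

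**Figure D3:**
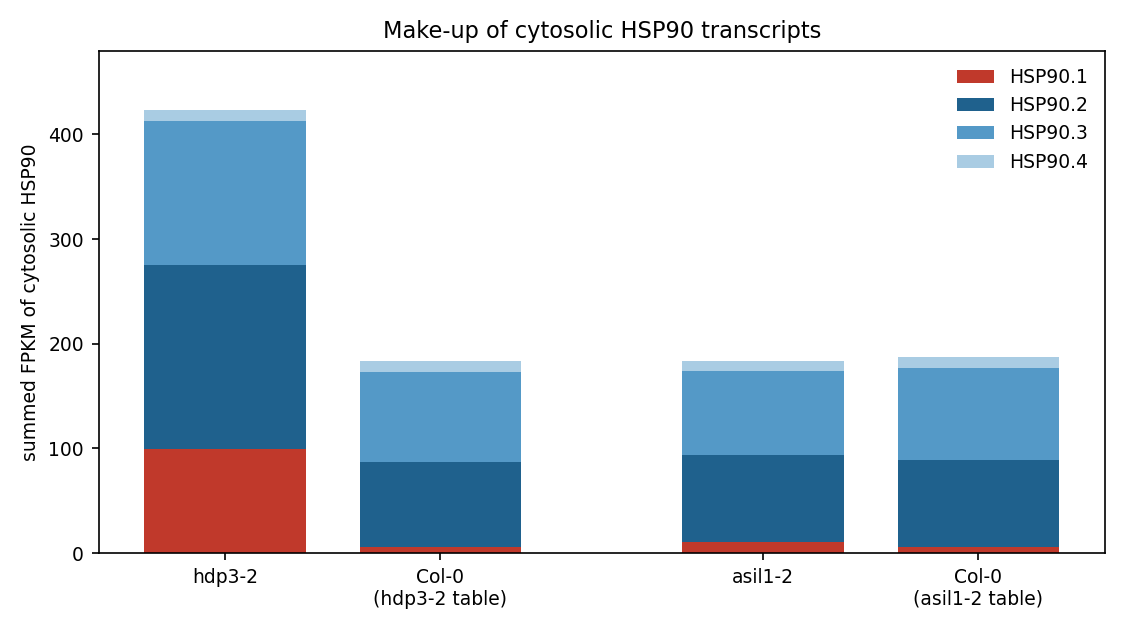
Summed FPKM of the 4 cytosolic HSP90 genes (y axis), stacked by gene, in each mutant and in the Col-0 column of its table. The hdp3-2 bar reaches 424 FPKM, of which HSP90.1 is 23.5%, whereas the asil1-2 bar (183 FPKM) and the Col-0 bars (184 and 187 FPKM) are near one another.

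The helpers of cytosolic HSP90 were counted next. Of 15 co-chaperone genes tested in hdp3-2, 5 rose and 0 fell by the Cuffdiff test (5 and 0 at an unadjusted p under 0.05), and their median log2 fold change was 0.22. Over all tested genes 1.3% rose and 1.78% fell, with a median of -0.06. ROF2 (AT5G48570, also FKBP65), a peptidyl-prolyl isomerase that binds HSP90.1, had 77.8 FPKM in hdp3-2 and 6.19 FPKM in Col-0 (log2 fold change 3.65 ± 0.31). HOP3 (AT4G12400), an adaptor that links HSP70 to HSP90, had 45.0 FPKM in hdp3-2 and 4.54 FPKM in Col-0 (3.31 ± 0.32), whereas its relatives HOP1 (AT1G12270) and HOP2 (AT1G62740) had values of 0.23 ± 0.28 and 0.41 ± 1.28 without a call. SGT1A (AT4G23570), a partner of HSP90 in disease resistance, rose by 0.85 ± 0.28, ROF1 (AT3G25230) by 0.71 ± 0.28 and AT3G12050, a relative of the ATPase activator AHA1, by 0.66 ± 0.28. The normal reading called 2 of these co-chaperones, ROF2 and HOP3, and lost SGT1A, ROF1 and AT3G12050. In asil1-2, 2 of the 15 rose and 0 fell (2 and 1 at an unadjusted p under 0.05), ROF2 by 0.93 ± 0.27 and HOP3 by 0.71 ± 0.29, and the median was -0.06. Over all tested genes 2.71% rose and 5.72% fell in asil1-2, with a median of -0.08, and the normal reading kept ROF2 and lost HOP3. The differences between the mutants passed for both ROF2 and HOP3 (z test on SEs from the authors' statistic, adjusted p = 1.56e-07 and 3.90e-06).

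A chosen list of 14 HSF genes, not taken as the whole family, had 12 that were tested in hdp3-2. Of these 2 rose and 1 fell (3 and 1 at an unadjusted p under 0.05), with a median of 0.19. Over all tested genes 1.3% rose and 1.78% fell, with a median of -0.06. HSFA2 (AT2G26150), an HSF that prolongs the heat response, had 40.6 FPKM in hdp3-2 and 1.41 FPKM in Col-0 (log2 fold change 4.85 ± 0.43). HSFA7A (AT3G51910) rose by 1.20 ± 0.32, and HSFB1 (AT4G36990), a repressor-type HSF, had a value of -0.71 ± 0.28 with a q of 0.0487 in the authors' deposited table. The call of HSFB1 was lost in the normal reading, which kept HSFA2 and HSFA7A. The HSFA1 genes, whose products start the heat response and are held by HSP90, were not called, with log2 fold changes of 0.18 in HSFA1A, 0.02 in HSFA1B, 0.02 in HSFA1D and 0.19 in HSFA1E. In asil1-2, 2 of 12 rose and 0 fell (3 and 2 at an unadjusted p under 0.05), HSFA2 by 1.45 ± 0.43 and HSFA7A by 0.97 ± 0.29, and the median was -0.14, where 2.71% of all tested genes rose and 5.72% fell. Between the mutants HSFA2 differed (z test on SEs from the authors' statistic, adjusted p = 4.75e-05), and HSFA7A did not pass (difference 0.23 ± 0.43).

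Of the 5 cytosolic HSP70 genes, whose products pass clients on to HSP90, 2 rose in hdp3-2 and 0 fell by Cuffdiff (3 and 0 at an unadjusted p under 0.05), with a median of 0.62. Cuffdiff called 1.3% of all tested genes higher and 1.78% lower in hdp3-2, and 2.71% higher and 5.72% lower in asil1-2. HSP70-4 (AT3G12580) had 136 FPKM in hdp3-2 and 19.1 FPKM in Col-0 (2.83 ± 0.29), and HSC70-3 (AT3G09440) had 228 FPKM in hdp3-2 and 77.6 FPKM in Col-0 (1.55 ± 0.28). In asil1-2 the 1 called gene was HSP70B (AT1G16030), at 5.32 FPKM in asil1-2 and 3.05 FPKM in Col-0 (0.80 ± 0.32), and it was lost in the normal reading, which called 0 of these genes in asil1-2 and the same 2 as Cuffdiff in hdp3-2. No transcript of the 9 listed HSP90 clients, among them the auxin receptor TIR1, the jasmonate receptor COI1, the clock protein ZTL and the resistance protein RPM1, was called in either mutant by Cuffdiff, with 1 at an unadjusted p under 0.05 in hdp3-2 and 0 in asil1-2, and a normal reading of the statistic called 0 in both. Their medians were 0.10 in hdp3-2 and -0.02 in asil1-2. Either way, 3.08% of all tested genes were called in hdp3-2 and 8.42% in asil1-2, so 0 of 9 does not set the clients apart.

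The chaperones that share a compartment with HSP90.5, HSP90.6 and HSP90.7 were counted in the same way. Of 8 plastid chaperone and import genes 0 were called in either mutant by Cuffdiff, 0 had an unadjusted p under 0.05 and 0 passed in a normal reading. HSP90.5 was the 1 plastid chaperone gene of those listed that was called in asil1-2. Cuffdiff called 3.08% of all tested genes in hdp3-2 and 8.42% in asil1-2, so 0 of 8 does not set this list apart from other genes. The medians of the plastid list were 0.02 in hdp3-2 and -0.11 in asil1-2. Of 5 mitochondrial chaperone genes 0 were called in either mutant by Cuffdiff, with 2 at an unadjusted p under 0.05 in hdp3-2 and 0 in asil1-2, and 0 in a normal reading. Their medians were 0.03 in hdp3-2 and 0.00 in asil1-2. In the ER list 1 of 10 tested genes rose in hdp3-2 and 0 fell, with 1 and 4 at an unadjusted p under 0.05, and the median was -0.24. The gene that rose was ERDJ3A (AT3G08970), a J-domain helper of the ER chaperone BiP, at 4.10 FPKM in hdp3-2 and 1.77 FPKM in Col-0 (1.21 ± 0.42). The call of ERDJ3A was lost in the normal reading of the authors' statistic (adjusted p = 0.266), which called 0 ER genes in hdp3-2. In asil1-2, 0 of 11 ER genes were called by Cuffdiff, with 1 higher and 2 lower at an unadjusted p under 0.05 and 0 in a normal reading, and the median was -0.21. At that unadjusted p, 878 of all 20177 tested genes were higher and 1690 lower in hdp3-2. The same counts in asil1-2 were 1326 and 2719 of 20205.

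**Figure D4:**
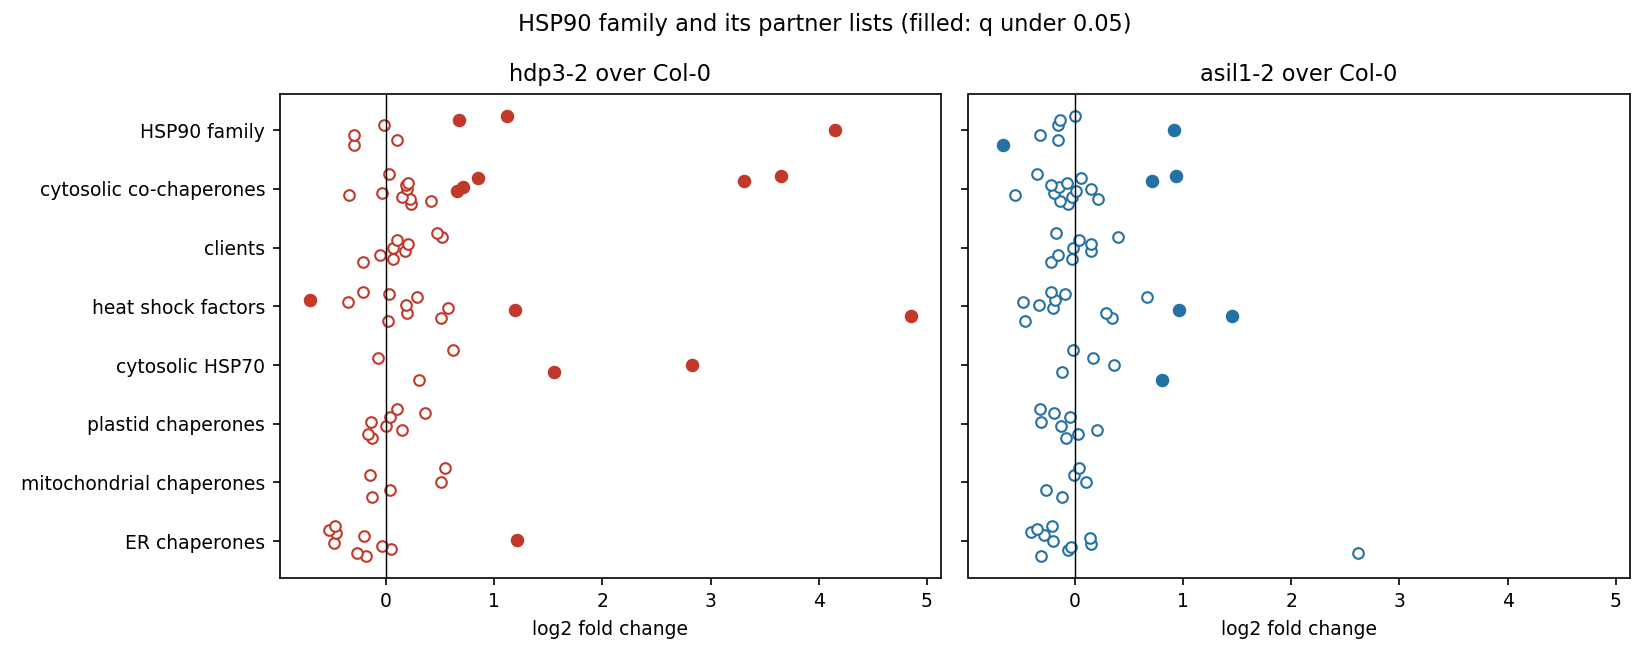
Log2 fold change over Col-0 (x axis) of each tested gene of the HSP90 family and of 7 partner lists, in hdp3-2 (left) and asil1-2 (right); filled points have a q under 0.05. In hdp3-2 the called genes lie in the cytosolic lists and the HSF list, with 1 in the ER list (ERDJ3A at 1.21), and in asil1-2 HSP90.5 is the 1 filled point below 0.

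Genes with the pattern most like that of HSP90.1 were sought by the distance between log2 fold changes in the plane of both comparisons, over 19260 other genes with an FPKM of at least 1 in some genotype. This rests on 2 contrasts that share Col-0. The nearest was AT1G59860, a small heat shock protein gene of the HSP20-like family, with log2 fold changes of 4.10 in hdp3-2 and 0.86 in asil1-2, a distance of 0.08. HSP101 (AT1G74310, ATHSP101 in the tables), which pulls proteins out of aggregates, followed at 3.94 and 1.07. AT2G29500, another small heat shock protein gene, had 3.77 in hdp3-2 and 0.75 in asil1-2, and then came ROF2 and HOP3 at distances of 0.50 and 0.87. AT1G59860 and AT2G29500 were not called in asil1-2. None of the 5 holds an HSE match with 3 units in its upstream window, while AT1G59860, HSP101 and AT2G29500 hold 1, 1 and 2 matches with 2 units.

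Other measures moved with the hdp3-2 comparison. Of 59 tested genes of the plastid genome 15 rose in hdp3-2 and 0 fell, with a median log2 fold change of 0.95, and of 24 mitochondrial genome genes 2 rose, with a median of 1.69. Over all tested genes 1.3% rose and 1.78% fell in hdp3-2. In asil1-2, 0 of 58 plastid and 0 of 16 mitochondrial genome genes were called, with medians of 0.13 and 0.09. There 2.71% of all tested genes rose and 5.72% fell. The part of RNA preparation in the HSP90 values was not tested. In whole seedlings, more cells that express a gene and more transcripts per cell cannot be told apart.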

How the data were processed

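RNA from hdp3-2 and asil1-2 seedlings was sequenced, with 2 libraries each. The submitters' processing notes list Cuffdiff, Cufflinks, TopHat2, deepTools and TAIR10, with no versions or options. Per the file headers, the deposited tables have the Cuffdiff layout, with 1 FPKM value per genotype made by the authors. Their test statistic is the deposited score, and the deposited p-value and q-value columns are also theirs. Col-0 FPKM differed by a factor of 0.982 between the tables, so no value was carried across them. The depth is unknown.

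Log2 fold changes were computed from FPKM with no pseudocount, and dividing each by the statistic gave its SE. The z implied by p exceeded the statistic by a median factor of 1.41 for hdp3-2 and 1.42 for asil1-2, so most SEs are wide for their p. Calls needed status OK and a q under 0.05. The z test of the difference sums both variances. It was run on simulated data whose noise was drawn from the same SEs, which cannot show whether those SEs are right. Upstream windows come from RefSeq TAIR10.1, where 16464 of 32809 shared nuclear loci start or end at the deposited base. Coding identity is from a global alignment of the longest RefSeq coding sequences. Upstream runs needed at least 3 kinds of base.

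Named genes are all members, the called genes of each partner list (at most 6, by size of change) and the 5 nearest to HSP90.1. Uncalled relatives, AT5G56020 and the upstream searches were chosen after values were seen. The members, lists and tests were chosen with earlier results of these data known. Alternatives were other thresholds, adjustments, filters, pseudocounts and centring. The work used SciPy 1.17.1, NumPy 2.4.6, pandas 2.3.3, Biopython 1.88 and matplotlib 3.10.9 under Python 3.11.15.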

Additional observations from a re-analysis of the deposited data

Results flagged for a closer look

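The rise of HSP90.1 differed between the mutants, with a log2 difference of 3.23 (hdp3-2 minus asil1-2) in the z test given above. It was 3.21 to 3.23 under the alternatives, with an adjusted p of at most 6.93e-11. With 1 FPKM value per genotype, no single library could be examined for standing apart.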

How the results depend on the processing

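HSP90.1 and HSP90.2 kept their calls in hdp3-2 under the 8 alternatives, with log2 fold changes from 3.93 to 4.21 and from 1.11 to 1.18. HSP90.1 kept its call in asil1-2 under 7 of 8, the exception being the 2-fold minimum. The pseudocounts and the centring changed the fold changes alone, so no call could be lost under them. The recomputed adjustment repeated the authors' own and gave the same q. The call of HSP90.5 in asil1-2 was lost under 2. Of 7 members in asil1-2, 0 were called with a 2-fold minimum and 1 in a normal reading of the statistic, against 2. The difference between the mutants passed for 2 members, against 1, with the summed variance multiplied by 0.5. Called partner genes in hdp3-2 numbered 7 at a q under 0.01, 7 with the 2-fold minimum and 6 in the normal reading, against 11, and in asil1-2 they numbered 3, 1 and 3, against 5. Centring on the median of -0.06 or -0.08 turned uncalled values near 0 to 0.0467 in HSP90.4 in hdp3-2 and to 0.0814 in HSP90.2 in asil1-2. No paired analysis was possible because the tables hold 1 value per genotype, and for the same reason leaving out a replicate was not run.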

Other observations

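A match to the HSE with 3 units, the kind found before HSP90.1, stands in the upstream window of 115 genes tested in hdp3-2, and 13 of these rose and 2 fell, whereas of 19920 genes without such a match 233 rose and 357 fell. The medians of the log2 fold change in hdp3-2 were 0.07 with a match and -0.07 without. In asil1-2, 5 of 114 genes with a match rose and 8 fell, and of 19956 without one 542 rose and 1145 fell. The medians in asil1-2 were -0.10 with a match and -0.08 without. This count was made after the match in HSP90.1 had been seen, includes HSP90.1 among the genes with a match that rose, and carries no test.

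Next to HSP90.5 on chromosome 2 lies AT2G04032, named ZIP7 in the tables, a member of the zinc and iron transporter family. AT2G04032 had 2.93 FPKM in hdp3-2 and 6.61 FPKM in Col-0 (log2 fold change -1.17 ± 0.41), and 2.49 FPKM in asil1-2 and 6.73 FPKM in Col-0 (-1.43 ± 0.38), and was called lower in both. It was chosen after its values were seen.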
